A study of Homo sapiens with 8 samples.

Results

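MGAT5 and GTDC1 are 2 genes of chromosome 2 that hold dense groups of transcription start sites listed for senescent fibroblasts and not for proliferating ones. A site belonged to a gene when its midpoint lay in the GENCODE 44 span of that gene, lifted to hg19, or within 1 kb upstream of it. This gave 21 of the 1249 sites in the series, 9 in MGAT5 and 12 in GTDC1. All 21 came from the senescent-only list (849 sites), and 0 of the 400 proliferating-only sites lay in either gene. The members were chosen by the authors' fold, through the lists, and by the position of a site, so both are given as descriptions, with no test.

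The cells were IMR90, human lung fibroblasts, taken either while proliferating or after serial passage had ended their growth (replicative senescence). PRO-cap, a nuclear run-on method that selects capped 5′ ends of newly made RNA so that reads mark where transcription starts, was done on 3 proliferating libraries (population doubling 23 for replicate 1, 26 for A and B) and 3 senescent libraries (76 for replicate 1, 67 for A and B). PRO-seq, which maps engaged RNA polymerase, was done on 1 proliferating library (population doubling 20) and 1 senescent library (76) and is not analysed here. Every site carries 1 value that compares the states, and the spread between cultures is therefore unknown.

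MGAT5 encodes the Golgi enzyme N-acetylglucosaminyltransferase V, which adds a branch to the N-glycans of secreted and cell-surface proteins. The branch can be extended into chains that galectins bind, and it is known to affect how long growth factor receptors stay at the surface and how cells adhere and migrate. GTDC1 encodes a protein with a glycosyltransferase fold of the family that also holds ALG2, ALG11 and PIGA. It has been identified as the enzyme that attaches mannose to queuosine, a modified base in the anticodon of certain tRNAs, and is also called QTMAN. The genes thus modify different molecules, proteins in one case and tRNA in the other. A capped start inside an intron can come from an enhancer, which is transcribed from its own starts, or from a promoter within the gene, and the lists do not tell these apart.

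The sequences of 7 sites are shown because they hold high folds or read counts of each gene, or an AP-1 or RUNX motif. Sites are numbered from the 5′ end of their gene. The letters are the + strand of GRCh37, which has the coordinates of hg19 here, read 5′ to 3′; MGAT5 lies on this strand and GTDC1 on the other. Capitals mark matches to the motifs described with the sequence results.
MGAT5 site 6: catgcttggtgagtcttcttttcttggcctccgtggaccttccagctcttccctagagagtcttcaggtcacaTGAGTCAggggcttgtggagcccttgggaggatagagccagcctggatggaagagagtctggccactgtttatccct
MGAT5 site 7: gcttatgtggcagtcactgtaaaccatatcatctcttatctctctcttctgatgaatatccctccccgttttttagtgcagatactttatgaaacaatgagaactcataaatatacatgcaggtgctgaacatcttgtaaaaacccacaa
MGAT5 site 8: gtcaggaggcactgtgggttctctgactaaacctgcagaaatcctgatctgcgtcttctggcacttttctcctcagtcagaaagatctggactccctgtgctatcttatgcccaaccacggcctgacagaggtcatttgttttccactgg
GTDC1 site 2: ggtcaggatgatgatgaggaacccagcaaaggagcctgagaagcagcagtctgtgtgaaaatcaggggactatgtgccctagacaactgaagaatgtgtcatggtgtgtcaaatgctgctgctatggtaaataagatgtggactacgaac
GTDC1 site 5: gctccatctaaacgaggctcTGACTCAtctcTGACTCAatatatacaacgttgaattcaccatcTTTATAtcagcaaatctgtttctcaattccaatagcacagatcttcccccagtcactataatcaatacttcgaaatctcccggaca
GTDC1 site 8: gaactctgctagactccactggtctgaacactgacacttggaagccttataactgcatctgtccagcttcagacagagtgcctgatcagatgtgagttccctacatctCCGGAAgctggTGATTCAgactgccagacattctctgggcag
GTDC1 site 10: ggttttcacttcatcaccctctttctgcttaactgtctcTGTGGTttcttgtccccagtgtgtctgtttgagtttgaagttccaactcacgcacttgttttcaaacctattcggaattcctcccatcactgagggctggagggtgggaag
Their places are chr2:135166124-135166273, chr2:135166508-135166657 and chr2:135168386-135168535 for the MGAT5 sites in the order shown. Those of the GTDC1 sites are chr2:144895660-144895809, chr2:144888743-144888892, chr2:144869091-144869240 and chr2:144854996-144855145.

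Each site was 150 bases wide. The authors' fold, printed from the authors' deposited table, is a ratio of senescent over proliferating signal with a pseudocount of 1, and all 1249 folds decoded to whole reads of each state with 1 solution per site. One step of the scale was taken as 1 read. If the step were another fixed unit, every read count and its interval would change, and the deposited folds would not. A read was worth 32.8 in senescent and 39.4 in proliferating cells on the authors' scale, so equal counts weigh 1.20 times more in proliferating cells. Intervals on reads are exact Poisson 95% intervals and cover at most counting error. Whether each read is a separate molecule is not known from the lists, and duplicate reads would make the intervals too narrow. In these bulk data, more cells that use a site and more starts per cell cannot be told apart. The lists hold no expression levels, so the cell type was not checked against markers.

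Few genes held sites of the senescent-only list. Of 20176 protein-coding genes, 2.04% held at least 1 senescent-only site and 1.09% a proliferating-only site. Of the 699 genes at least as long as MGAT5, 16.7% had a senescent-only site. Against these shares, 8 genes held 9 or more, among them MGAT5, and 2 genes, GTDC1 and PTPRM, held 12. The genes were chosen for these counts, so nothing is read from them.

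The MGAT5 sites lay near the 3′ end of the gene. MGAT5 spans chr2:134877554-135212192 on the + strand (334.6 kb), and its 9 sites fell within 12.3 kb, 83.3% to 86.9% of the way along the gene. Sites 1 to 4 were in intron 10 of the canonical transcript and sites 5 to 9 in intron 11, on either side of exon 11. The sites were 145 to 157 kb from the start of that transcript, and 0 of the 5 annotated MGAT5 transcripts start inside the group. The exons before intron 10 encode 460 of the 741 residues of the enzyme, and those before intron 11 encode 510.

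Sites 8 and 9, the closest to the 3′ end, had the most reads of the gene, 127 in senescent (105.9 to 151) and 4 in proliferating cells (1.09 to 10.2). They share 145 of their 150 bases and have the same counts and the same fold of 26.3, so they are near-duplicates of 1 place. Site 5 followed with 72 senescent reads (56.3 to 90.7) and 1 proliferating read (fold 58.5). Site 2 had 52 senescent reads and 1 proliferating read (fold 42.3), and site 3, which shares 134 bases with it, had 49 and 1 (fold 39.9). Site 6 had 41 senescent reads and 2 proliferating reads (fold 16.9).

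The remaining sites of MGAT5 had no proliferating read and the highest folds. Site 7 had 22 senescent reads (13.8 to 33.3) and a fold of 723. Site 1 had 17 senescent reads (9.90 to 27.2) and a fold of 559. Site 4 had 9 senescent reads (4.12 to 17.1) and a fold of 296. The order by fold was therefore not the order by reads. The 3 sites without a proliferating read had 9 to 22 senescent reads, and the 6 with one had 41 to 127. These 6 are pairs that share bases (sites 2 and 3, 5 and 6, 8 and 9). In GTDC1 the same ranges were 10 to 152 and 46 to 291, which overlap. A fold above 10 needs more senescent reads at a site with proliferating reads than at one without, so nothing is read from the ranges. With a count of 0 the fold has no upper limit, so the lower end of the exact 95% interval is given for the ratio of scaled reads (senescent over proliferating reads, each at its worth, without pseudocount). It was 4.57 at site 7, 3.44 at site 1 and 1.65 at site 4, far under the deposited folds. At the MGAT5 sites with proliferating reads the lower ends were 4.44 to 10.4.

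**Figure D1:**
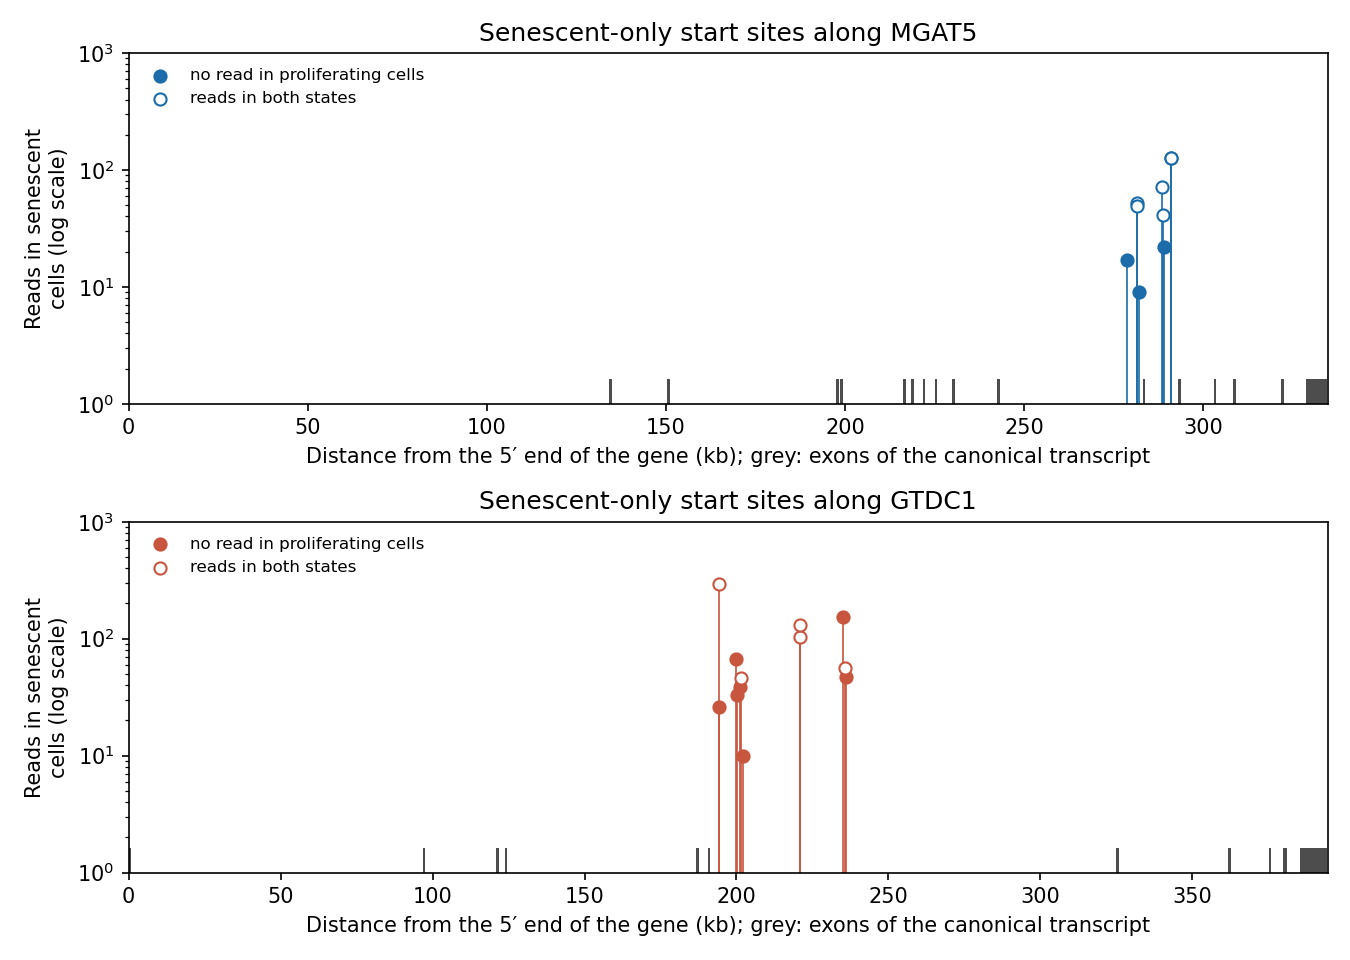
Reads in senescent cells (vertical axis, log scale) of each senescent-only site along MGAT5 and GTDC1, by distance from the 5′ end of the gene in kb. Filled points have no read in proliferating cells and open points have some; grey blocks are exons of the canonical transcript, drawn at least 0.8 kb wide. The 9 MGAT5 sites form 1 narrow group around 1 exon late in the gene, while the 12 GTDC1 sites form 3 groups inside 1 long intron.

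The GTDC1 sites lay near the middle of the gene. GTDC1 spans chr2:144695635-145090135 on the opposite strand (394.5 kb), and its 12 sites fell within 41.8 kb, at chr2:144854116-144895951, or 49.2% to 59.8% of the way along the gene. All 12 were in intron 6 of the 11 introns of the canonical transcript. That intron is 134.3 kb long, and the sites lay in its first part, 3.50 to 45.2 kb past the preceding exon. The exons before it encode 173 of the 458 residues. Of the 21 annotated GTDC1 transcripts, 0 start inside the group, and the nearest start was 7595.5 bases from the midpoint of site 1.

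The sites fell into 3 groups when joined within 10 kb. The first, of 7 sites in 8.00 kb, was 18.7 kb from the second, of 2 sites in 205 bases, and the third, of 3 sites in 1.03 kb, was 13.9 kb further on. The groups were unlike in how many sites had proliferating reads, which was not tested. All sites of the second group had proliferating reads, while 5 of 7 in the first and 2 of 3 in the third had none.

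In the first group, site 2 had the most reads of either gene, 291 in senescent (258.5 to 326) and 6 in proliferating cells (2.20 to 13.1), with a fold of 40.3. Of the senescent-only sites, 98.0% had fewer reads, whereas 33.8% had a lower fold. Site 1, which shares 8 bases with it, had 26 senescent reads and no proliferating read (0), and a fold of 854. For these neighbours the order by fold was opposite to the order by reads. The next sites had no proliferating read (0 each). Site 3 had 67 senescent reads and a fold of 2199. Site 5 had 39 senescent reads and a fold of 1281. Site 4 had 33 senescent reads and a fold of 1084. Site 7 had the fewest of the gene, 10 senescent reads and a fold of 329. Site 6 shares 22 bases with site 5 and had 46 senescent and 2 proliferating reads (fold 18.9).

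The second group was a single place. Its sites 8 and 9 share 95 bases, had 103 and 132 senescent reads (84.1 to 124.9 and 110.4 to 156.5) and 6 and 8 proliferating reads, and the lowest folds of both genes, 14.3 and 13.7. Their ratios of scaled reads were 14.3 (6.35 to 39.9) and 13.8 (6.78 to 32.5), so the intervals reach under the 10-fold that every listed site passed. So did those of 5 other sites with proliferating reads. Their lower ends were 7.44, 6.99 and 4.44 at MGAT5 sites 2, 3 and 6, and 5.01 and 8.04 at GTDC1 sites 6 and 11. Most sites with no proliferating read also had lower ends under 10. These were 5.47, 7.05, 8.40 and 1.87 at GTDC1 sites 1, 4, 5 and 7, and 3.44, 1.65 and 4.57 at MGAT5 sites 1, 4 and 7. Only GTDC1 sites 3 (14.7), 10 (33.9) and 12 (10.2) of that kind had lower ends above 10.

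The third group held the highest fold of both genes. Site 10 had 152 senescent reads (128.8 to 178.2) and 0 proliferating reads, and its fold of 4989 was number 11 of the 849 in the list. The exact 95% interval of its ratio of scaled reads starts at 33.9, the highest lower end among the 10 sites with no proliferating read. Site 12 had 47 senescent reads and no proliferating read (0), a fold of 1543 and a lower end of 10.2. Site 11 had 56 senescent reads and 1 proliferating read (fold 45.5).

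**Figure D2:**
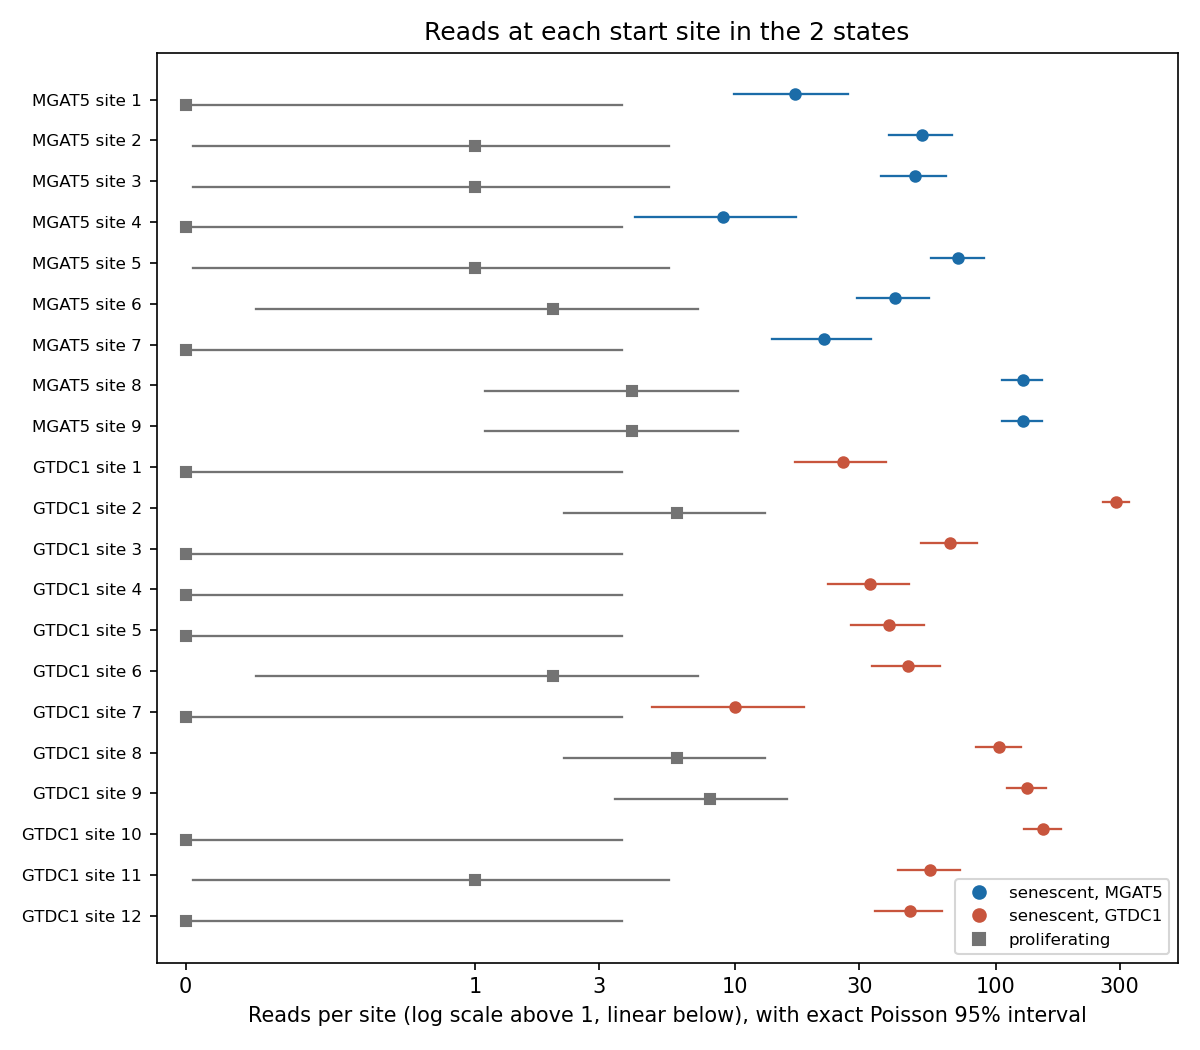
Reads at each site (horizontal axis, linear below 1 and log above) in senescent cells (circles) and proliferating cells (squares), with exact Poisson 95% intervals as lines. The senescent intervals lie to the right of the proliferating ones at all 21 sites, which were chosen for a fold above 10, and the distance is smallest at MGAT5 site 4 and GTDC1 site 7.

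The genes were set side by side over places rather than sites, because 12 of the 21 sites shared bases with another in 6 pairs. In the whole list 160 of 849 sites (18.8%) shared bases with another. Counting overlapping sites once, by the site with the most reads, left 6 places in MGAT5 and 9 in GTDC1. MGAT5 then had 299 senescent and 6 proliferating reads. Its ratio of scaled reads was 41.4 with a pseudocount of 1 and 41.5 without (exact 95% interval of the latter, 18.9 to 114.1). GTDC1 had 834 and 17, a ratio of 40.8 with a pseudocount of 1 and 40.9 without (25.4 to 70.5). The sites of both genes were chosen for their fold, so the ratios are a description and were not tested against each other. Of the 299 senescent reads in MGAT5, 42.5% lay in the place of sites 8 and 9, counted as 1 site. Of the 834 in GTDC1, 34.9% lay at site 2, without the reads of site 1, which shares 8 bases with it.

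Counted per site, the median read count was above that of the senescent-only list in both genes, while the median fold was above it only in GTDC1. The median was 49 senescent reads in MGAT5 and 51.5 in GTDC1, against 32 over the list (interquartile range 14 to 73), and 6 of 9 and 10 of 12 sites were above that median. These counts take overlapping sites separately. With overlapping sites counted once, the 6 MGAT5 places had 17, 52, 9, 72, 22 and 127 senescent reads, so 17, 9 and 22 lay under the list median. In GTDC1 only the place of site 7, with 10 reads, lay under it. Per site, the median fold was 42.3 in MGAT5 and 592 in GTDC1, against 296 over the list, with 2 of 9 and 7 of 12 sites above it. With overlapping sites counted once, by the site with the most reads, the MGAT5 folds were 559, 42.3, 296, 58.5, 723 and 26.3. Those of GTDC1 were 40.3, 2199, 1084, 18.9, 329, 13.7, 4989, 45.5 and 1543. The share of sites with no proliferating read was 3 of 9, 7 of 12 and 55.4% of the list. The 3 MGAT5 sites are separate places among the 6, while GTDC1 sites 1 and 5 overlap sites with more reads. These comparisons use the measure that chose the sites and were not tested.

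**Figure D3:**
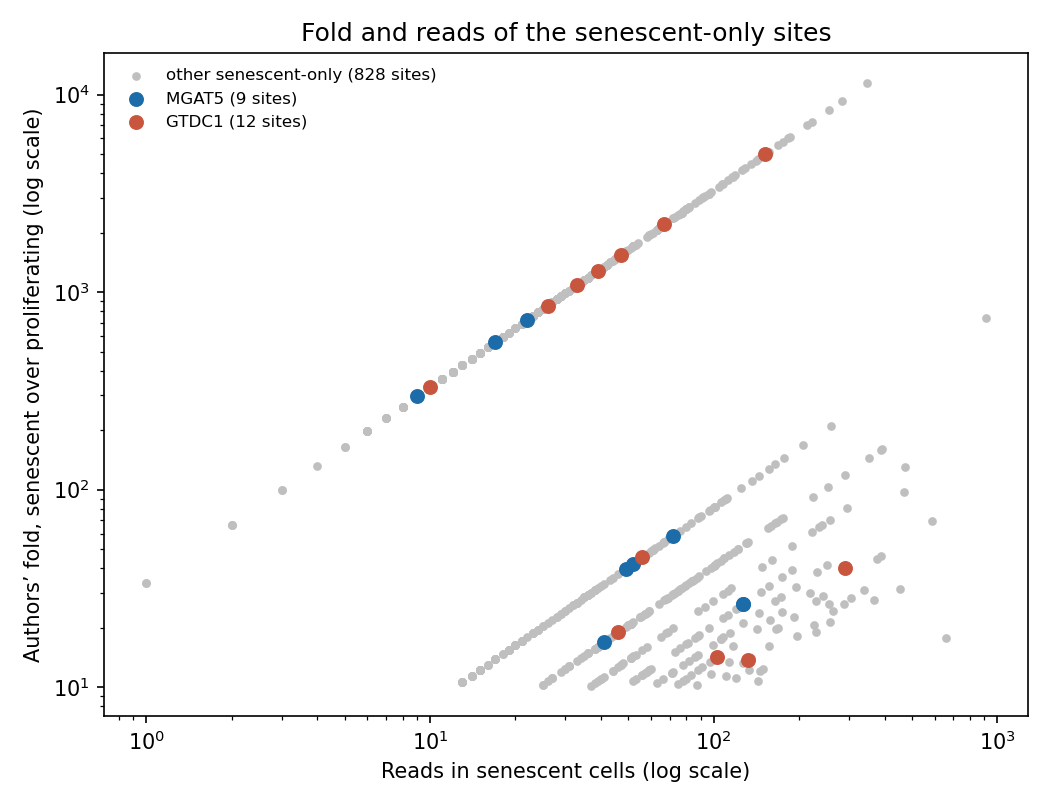
The authors' fold (vertical axis, log scale) against reads in senescent cells (horizontal axis, log scale) for all 849 senescent-only sites, with MGAT5 in blue, GTDC1 in red and other sites in grey. The upper line holds sites with no read in proliferating cells and the bands under it sites with 1 or more; 3 MGAT5 and 7 GTDC1 sites are on the upper line, and GTDC1 site 2, which has the most reads of the 21 sites of both genes, is in a lower band.

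All 21 sites were intronic, as were 82.9% of the senescent-only list, and 0 were within 1 kb of any annotated transcript start or in an exon (8.72% and 8.36% of the list). The MGAT5 sites were 45712.5 to 57866.5 bases from the nearest start of any gene. No other annotated gene lay over any of the midpoints. The strand column holds + for every site, so whether these starts run with or against the host gene is not known from the lists, and what part of either protein an RNA from them could encode was not examined.

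Base composition was compared with the host gene because the genes differ in it. The sites had a median GC content of 49.3% in MGAT5 (37.3% to 54.7%) and 39.7% in GTDC1 (30.7% to 50.7%), against 46% over the senescent-only list. Consecutive 150-base windows of the whole gene had medians of 42.7% and 36%. GC content was above the median of their own gene at 6 of 9 MGAT5 and 7 of 12 GTDC1 sites. These medians and counts take overlapping sites separately. With overlapping sites counted once, by the site with the most reads, MGAT5 places had 37.3%, 49.3%, 43.3%, 42.7%, 37.3% and 50.7%. Of these, 37.3%, 42.7% and 37.3% were not above the gene median. GTDC1 places had 47.3%, 33.3%, 30.7%, 36%, 32.7%, 47.3%, 47.3%, 40.7% and 35.3%. Of these, 33.3%, 30.7%, 36%, 32.7% and 35.3% were not above it. Motifs of factor families known in fibroblasts and a core promoter motif, 6 in all, were then searched on both strands. The letters were TGANTCA for AP-1 (the FOS and JUN factors), GGAATG for TEAD, TGTGGT for RUNX, TTGCNNAA for C/EBP, CCGGAA for ETS and TATAAA for the box of that name, called TATA here.

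An AP-1 match lay in 3 of the 21 sites (14.3%, Wilson 95% interval 4.98% to 34.6%), against 20.3% of all senescent-only and 9% of all proliferating-only sites. Among consecutive windows of the same length it lay in 4.89% in MGAT5 and 5.13% in GTDC1. The interval holds the shares of both lists and of the GTDC1 windows, and the MGAT5 window share lies just under it. It treats the 21 sites as independent, although 12 of them share bases with another in 6 pairs, so it understates the uncertainty. Site 6 of MGAT5 held the match TGAGTCA in its centre (bases 74 to 80), next to site 5, with which it shares 23 bases. Site 5 of GTDC1 held the match TGACTCA 2 times, in bases 21 to 27 and 32 to 38, and a TATA match in bases 65 to 70. Site 8 of GTDC1 held the match TGATTCA in bases 120 to 126, just past an ETS match in bases 109 to 114, and the AP-1 bases do not lie in the overlapping site 9. The sites with the most reads of each gene (GTDC1 site 2 and MGAT5 sites 8 and 9) had none of the 6 motifs, which says only that these letters are not in the windows.

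The other motifs were seen in few sites. RUNX matches lay in 4 of 21 sites (19.0%), among them GTDC1 site 10 at bases 40 to 45, and in 15.2% of the senescent-only list, 10.9% of MGAT5 windows and 8.97% of GTDC1 windows. TEAD matches lay in 3 sites (14.3%; list 12.8%, windows 9.82% and 8.33%) and TATA matches in 3 (14.3%; list 9.66%, windows 13.0% and 20.8%). ETS and C/EBP matches lay in 1 GTDC1 site each (4.76%; list 2.12% and 8.13%). The ETS share of windows was 1.17% in MGAT5 and 0.837% in GTDC1, and the C/EBP share 7.89% and 8.75%. No 2 matches overlapped, and 11 of the 21 sites had at least 1 match.

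The bases of the sites were nearly all unique in the genome. Of the 21 sites, 20 had no 32-base word that occurs elsewhere in GRCh37 on either strand, against 93.2% of the senescent-only list. The exception was MGAT5 site 1, where 21 of 119 words occurred elsewhere, with up to 3 further copies. Where its 17 reads lie within the window is not known from the lists, and the part of these words in its count was not tested.

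The sites of both genes stood closer together than those of some other genes with many sites. The median distance between neighbouring midpoints was 535 bases in MGAT5 (5 to 6466) and 657 bases in GTDC1 (55 to 18864). These distances include those between overlapping sites, 16, 127 and 5 bases in MGAT5 and 142, 128 and 55 bases in GTDC1. Such short distances lower both medians, and the medians with overlapping sites counted once were not examined. Of the 34 protein-coding genes with at least 5 senescent-only sites, 24 had a median under 2 kb and 10 a median over 5 kb, and both genes belong with the first. Some genes hold the same sites as another gene and were each counted among the 24. Nearest to MGAT5 on a log10 scale were KCNJ15, a potassium channel (478 bases, 6 sites), RETREG1, a receptor for autophagy of the endoplasmic reticulum (603.5 bases, 5 sites), and CPQ, a carboxypeptidase (459 bases, 6 sites). Nearest to GTDC1 were CDCP1, a transmembrane glycoprotein (665 bases, 8 sites), MMP16, a membrane-bound matrix metalloproteinase (674 bases, 6 sites), and GLI2, a transcription factor of Hedgehog signalling (630.5 bases, 5 sites). The likeness is in spacing alone, with overlapping sites taken separately, over 1 list.

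**Figure D4:**
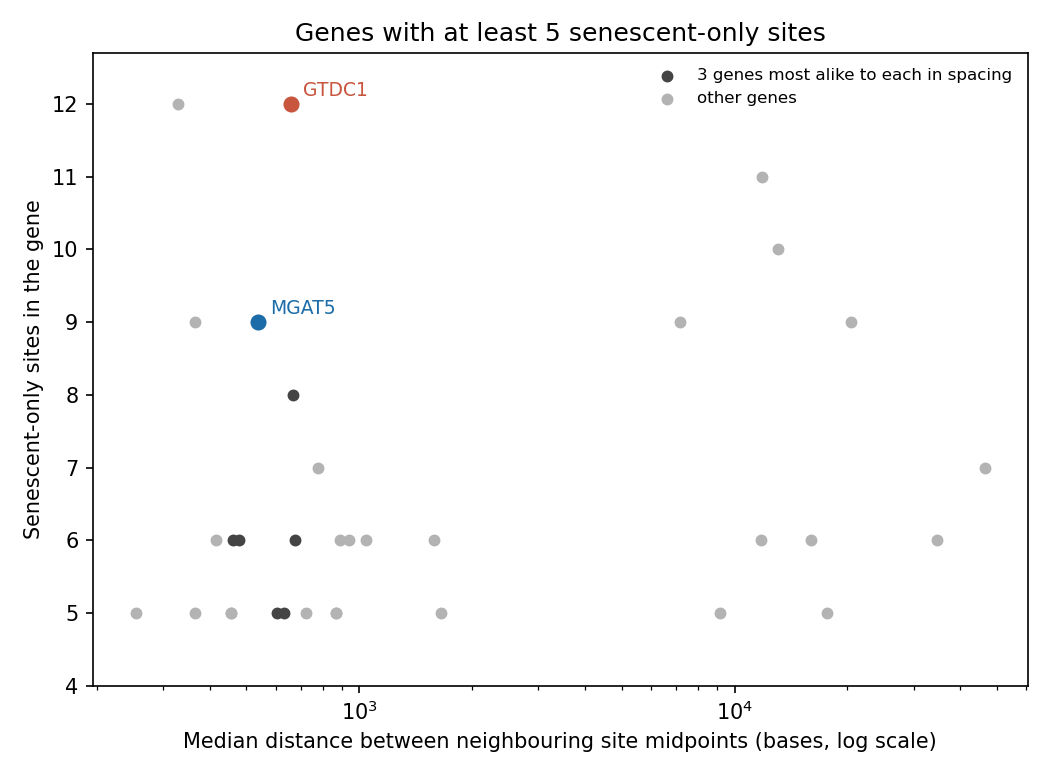
Number of senescent-only sites (vertical axis) against the median distance between neighbouring site midpoints (horizontal axis, log scale) for the 34 protein-coding genes with at least 5 sites. MGAT5 (9 sites, 535 bases) and GTDC1 (12 sites, 657 bases) are among the 24 genes with a median under 2 kb; dark points are the 3 genes nearest in spacing to each. Overlapping sites are taken separately, and genes that hold the same sites are each shown.

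Listed sites of the neighbouring genes were counted, with no matching for gene length. MGAT5 and GTDC1 are 9.48 Mb apart, and together hold 21 of the 103 senescent-only sites of chromosome 2. Within 1 Mb of MGAT5 are 7 protein-coding genes. Of these, 2 held a senescent-only site (against 2.04% of all protein-coding genes) and 0 a proliferating-only site (against 1.09%). So few genes do not allow a reading of these shares. TMEM163, a zinc transporter whose gene ends 1.14 kb past the 3′ end of MGAT5, held 1 intronic site 6.82 kb from MGAT5, with 21 senescent reads and 1 proliferating read (fold 17.1). This is the listed site nearest to the border that was left out, while the MGAT5 site nearest to it, site 9, was 43.7 kb inside. NCKAP5, the nearest gene on the other side, held 1 site with 14 senescent reads and no proliferating read (fold 460).

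Within 1 Mb of GTDC1 are 3 protein-coding genes. Of these, 0 held a senescent-only site (against 2.04% of all protein-coding genes) and 1 a proliferating-only site (against 1.09%), again too few to read. ARHGAP15, on the 3′ side, held 0 sites of either list. ZEB2, a repressor known for its part in epithelial-mesenchymal transition, lies 31.8 kb beyond the 5′ end of GTDC1 and held 1 proliferating-only site. That site, at chr2:145171920-145172069 in an intron, had 21 reads in proliferating cells and 1 in senescent cells (fold 24.5), the opposite direction to the sites of GTDC1, 81.8 kb away from that gene.

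Other genes of the same pathways were looked up in both lists. Of 34 genes of N-glycan branching and processing, 3 held a senescent-only site (8.82%, against 2.04% of all protein-coding genes) and 0 a proliferating-only site (against 1.09%). These shares are not matched for gene length, and of the 699 genes at least as long as MGAT5, 16.7% held a senescent-only site. MGAT5, chosen for its sites, is 1 of the 3. Without it, 2 of 33 genes held one, and 11 of the 33 are longer than 100 kb. The 2 were ST3GAL6, a sialyltransferase that caps glycan chains, and MAN2A1, the Golgi mannosidase that trims the glycan before the branch of MGAT5 is added. ST3GAL6 had 5 intronic sites in 1.43 kb, with 31 to 71 senescent reads and 1 to 5 proliferating reads, and folds of 11.8 to 46.4. It shared with MGAT5 the close spacing (median 253 bases, overlapping sites taken separately) but had no site without proliferating reads (0 of 5). MAN2A1 had 1 intronic site, with 9 senescent reads and none in proliferating cells (0), and a fold of 296.

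Of 65 transferases for O-glycans, glycosaminoglycans and glycolipids, 2 held a senescent-only site (3.08%) and 0 a proliferating-only site. Of these 65 genes, 19 are longer than 100 kb. CHSY1, which builds chondroitin chains, had 2 intronic sites, one with 147 senescent and 4 proliferating reads (fold 30.4) and one with 42 and 0 (fold 1379). GALNT2, which starts O-glycans, had 1 intronic site with 51 and 0 reads (fold 1674), 14.4% of the way along its gene. None of the 32 genes that assemble and transfer the dolichol-linked glycan held a site of either list (0), and 2 of them are longer than 100 kb. In the family of GTDC1 (5 genes) and among 6 queuosine-tRNA genes, GTDC1 was the only one with a listed site, and B3GNTL1, which attaches galactose to queuosine, held none (0). Over all lists, 6 of 139 genes held a senescent-only site (4.32%, against 2.04% of all protein-coding genes) and 0 a proliferating-only site (against 1.09%). Both members are among the 6 and were chosen for their sites, and the 4 others of 137 held 9 sites, of which 5 were in ST3GAL6. The shares over all lists were not matched for gene length either.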

How the data were processed

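PRO-cap sites of proliferating and senescent IMR90 cells were analysed from the 2 distinct site lists, each deposited a second time with the same content. The authors deposited 1 fold per site, a ratio of one state to the other, and the list names give its direction. HOMER, bedtools 2.27.1-65, cutadapt 2.10, SAMtools 1.1 and BWA 0.7.10 and the build hg19 are named, with no role, per the submitters' processing notes. Site calling, the libraries that entered and their depth are not given in the sources used here.

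Each fold was decoded as whole reads times a step plus 1, over the same for the other state (tolerance 1e-06 of a read, up to 64 reads of the other state), after a test on simulated data. One step was taken as 1 read, which the deposited values do not settle. If both states were scaled to 1 total, the senescent data were 1.20 times deeper. Sites took 1 class by midpoint: intergenic unless in an intron, an exon or, taken first, within 1 kb of any transcript start (promoter). Sequences came from GRCh37, and that of 1 site is not reported here. Python 3.11.15, NumPy 2.4.6, SciPy 1.17.1 and Matplotlib 3.10.9 were used. Named are both genes with all their sites, every gene of the pathway lists with a site, the nearest coding gene on each side, and for each gene the 3 genes with at least 5 senescent-only sites nearest in median spacing. In the lists, 1 gene was matched by an older symbol. The genes, lists and rules were chosen with earlier results of these data known. No test was made, since the rule used the values.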

Additional observations from a re-analysis of the deposited data

How the results depend on the processing

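No paired analysis was possible because sites have 1 value for all libraries together, which also kept single replicates from being left out. Counts of sites depended on the cutoffs. With a fold of at least 50, MGAT5 kept 4 of its 9 sites in 3 regions joined within 500 bases (5 otherwise), and GTDC1 kept 7 of 12. Among sites with no read in proliferating cells there were 3 and 7. Joining within 1 kb in place of 500 bases gave GTDC1 4 regions in place of 7, and joining within 5 kb in place of 10 kb split MGAT5 into 2. An AP-1 match was in 1 MGAT5 and 2 GTDC1 sites, in 3 and 4 sites with 300 bases searched, and in 1 GTDC1 site with the central 100 bases. The other 36 values, among them all intronic counts, the ratios of reads with other pseudocounts (39.9 to 41.5 in MGAT5 and 40.3 to 40.9 in GTDC1) and the list counts, stayed within 1.5 times the reported count or within the interval of the ratio. Counting overlapping sites once, or each of them in the ratio (33.0 and 36.3), was added after the data were examined. RefSeq spans of hg19 were not used here. Few reads limit the low end, since the exact 95% interval of 0 proliferating reads reaches 3.69.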
